A study of Mus musculus with 55 samples.

Results

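Corticosteroid signalling in the ventral dentate gyrus was followed through 10 genes, which were the receptors Nr3c1 and Nr3c2, the prereceptor enzyme Hsd11b1, the receptor cochaperone Fkbp5 and the hormone-responsive genes Sgk1, Tsc22d3, Zbtb16, Ddit4, Cdkn1a and Errfi1. The list was set by name, with earlier results of these data known, and its genes were found by matching Ensembl identifiers to mouse symbols. All 10 were among the 45318 genes of the count tables and among the 18283 genes that passed the low-count filter. In mice raised in an enriched environment, Nr3c2 and Hsd11b1 were lower than in mice raised in standard housing. No change of the 10 genes was called after social defeat, or between resilient and susceptible mice.

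Corticosterone (CORT), the main glucocorticoid of the mouse, acts in the hippocampus through a pair of nuclear receptors. Nr3c2 encodes the mineralocorticoid receptor, which binds CORT with high affinity and is largely occupied at resting hormone levels, and Nr3c1 encodes the glucocorticoid receptor, which is occupied as levels rise with stress or at the daily peak. Unliganded receptor is held by heat shock protein chaperones, and after binding hormone it moves to the nucleus and acts on response elements of target genes, among them Fkbp5, whose product lowers the hormone affinity of the glucocorticoid receptor.

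Each library came from a punch of ventral dentate gyrus from 1 male C57BL/6J mouse, without pooling. From the age of 21 days the mice were kept for 8 weeks in standard housing (SH, 3 mice per cage) or in an enriched environment (EE, 12 mice per cage with tunnels, objects and running wheels). Control mice were left unstressed, and the others underwent 10 days of chronic social defeat stress (CSDS) by CD-1 aggressors, after which a social interaction ratio above 1 defined resilient (RES) and a ratio below 1 susceptible (SUS) mice. The formula of this ratio in the supplementary methods sets time outside the interaction zone over time inside, and the direction given here follows instead the description of the classes in the results of the study. Tissue of the CSDS mice was taken on postnatal day 90. The groups comprised 10 SH control, 7 SH RES, 10 SH SUS, 9 EE control, 9 EE RES and 9 EE SUS mice, 54 in all. The labels do not give cages, so the p-values measure the spread between mice, and effects of a shared cage cannot be told apart from those of housing. RES and SUS were classed from behavior after defeat and were not assigned. Read pairs counted to genes on the reverse strand ranged from 16760009 to 24426804 per mouse with a median of 21552884 over the 54 mice, apart from EE control replicate 9, whose 2 runs summed to 45872357.

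The samples carried markers of dentate granule cells. The 8 granule cell markers, of which Rfx3 was the most abundant, summed to a median of 1355 CPM (counts scaled to normalized library size) in SH and 1222 CPM in EE mice. No marker gene of the tissues and cell types read was at 0 in every mouse. A few mice stood apart in markers of adjoining tissue. Choroid plexus markers summed to 1023 CPM in SH control replicate 3 and to 567 CPM in EE SUS replicate 3, against a median of 25.8 CPM in SH and 24.8 CPM in EE mice. Results are therefore also given below without SH control replicate 3 or with marker levels as covariates.

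Start-site sequence was read for the genes as context for hormone response, since glucocorticoid and mineralocorticoid receptors bind the inverted repeat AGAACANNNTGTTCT and variants of it. RefSeq windows of GRCm38.p6, from 250 bases before to 50 bases after a start, were at hand for 8 of the 10 genes, 17 windows in all. The full repeat was found on either strand in 3 of 32851 windows of all genes (0.00913%) and in 1 of the 17. It lies in the 250 bases before a Sgk1 start at chr10:21993890, with its first base at position -189 from that start. A separate copy of its hexamer, TGTTCT or AGAACA on the other strand, lies in the same stretch. Capitals mark the letters searched.
Sgk1, chr10:21993640-21993889, plus strand: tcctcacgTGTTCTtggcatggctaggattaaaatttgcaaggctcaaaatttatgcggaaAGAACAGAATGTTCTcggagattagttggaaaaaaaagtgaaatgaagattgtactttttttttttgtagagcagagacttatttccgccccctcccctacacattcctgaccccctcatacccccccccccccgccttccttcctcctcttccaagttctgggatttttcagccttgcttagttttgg
The shorter core ACANNNTGT, which the full repeat contains, matched 6.85% of all windows and 2 of the 17. Both were Sgk1 windows, and the second match is shown with its core in capitals, which begins at position -127 from another Sgk1 start.
Sgk1, chr10:21978535-21978564, plus strand: tctgtttgaaACAGTTTGTctacatagctg
The hexamer, which the full repeat also contains, was found in 19.0% of all windows and in 4 of the 17, those of Sgk1 and Tsc22d3. The Tsc22d3 hexamer begins at position -185 from its start and is shown in capitals.
Tsc22d3, chrX:140600690-140600719, minus strand: ccgcattcgacaTGTTCTaagttctgagac
A stretch before an Nr3c2 start at chr8:76902330, which lies inside the annotated gene and is not its first start, is shown because this gene had the smallest p for housing among the 10. Its 208 bases outside exons were rich in G and C (67.3%) and held none of the searched letters.
Nr3c2, chr8:76902080-76902287, plus strand: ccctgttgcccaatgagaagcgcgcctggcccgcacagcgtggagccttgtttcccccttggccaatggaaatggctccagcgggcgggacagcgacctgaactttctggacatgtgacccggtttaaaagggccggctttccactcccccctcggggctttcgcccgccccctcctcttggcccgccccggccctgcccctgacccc
These matches describe letters only and do not mark sites that a receptor occupied.

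Per length of exon, the mineralocorticoid receptor was the most abundant of the 10 transcripts. Nr3c2 stood at 53.9 ± 4.51 CPM per kilobase of exon (SD over the 54 mice) and Nr3c1 at 18.1 ± 1.17 CPM per kilobase, a ratio of 2.99 that ranged from 2.43 to 3.58 over mice. Ddit4, an inhibitor of mTOR signalling, stood at 18.9 CPM per kilobase, within an SD of Nr3c1. Tsc22d3, a leucine zipper protein induced by glucocorticoids, and Sgk1, a kinase induced by serum and glucocorticoids, followed at 14.3 and 14.0 CPM per kilobase and did not differ beyond their spread. The feedback inhibitor of the EGF receptor Errfi1 reached 11.9, the zinc finger transcription factor Zbtb16 8.75, Hsd11b1 7.49 and Fkbp5 4.46 CPM per kilobase. Last came Cdkn1a, a cyclin-dependent kinase inhibitor, at 0.341 CPM per kilobase, with 14 to 47 reads per mouse. Its counts leave it the least precise of the 10, and the other members had at least 533 reads in each mouse. Ordered by level within each gene, none of the 50 pairs of neighbouring group means differed by more than the larger SD of the pair, whereas the ends of an order could lie further apart, as for Nr3c2 at 380 ± 21.8 CPM in SH control and 322 ± 21.9 CPM in EE RES mice.

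**Figure D1:**
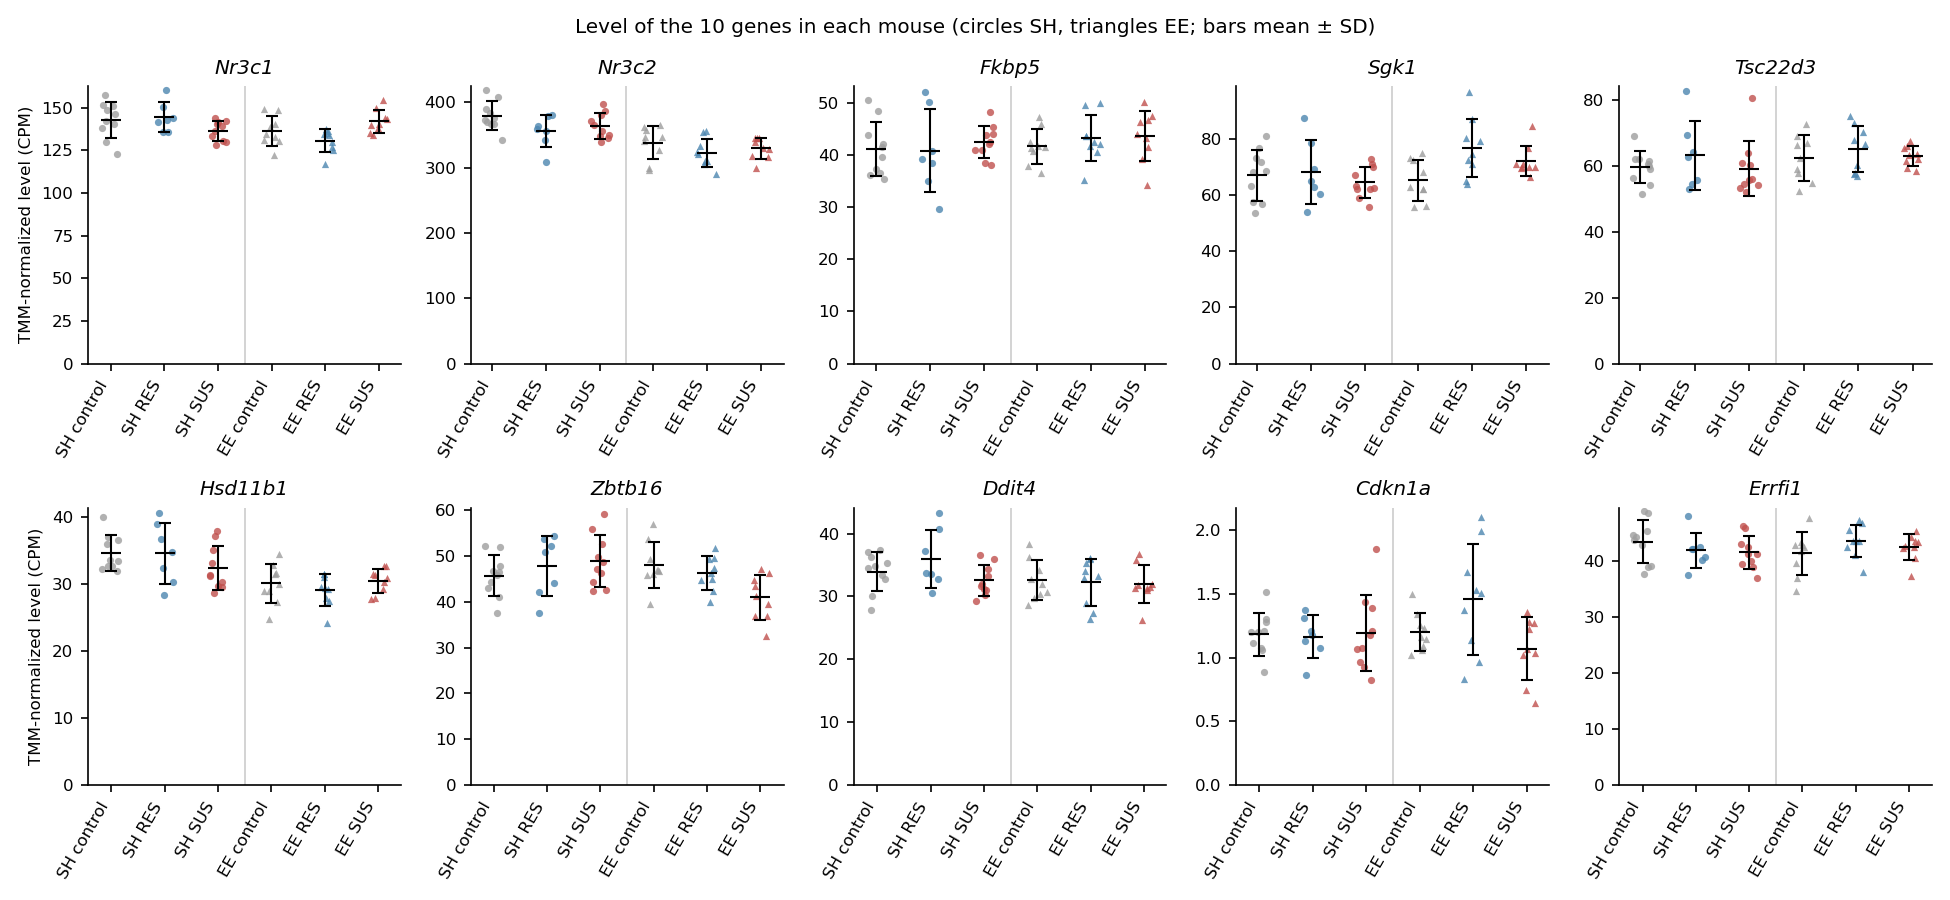
Normalized expression (CPM) of the 10 genes in each mouse by housing and phenotype, with circles for SH and triangles for EE mice and bars for mean ± SD, the axis of each panel starting at 0. The 3 EE groups of Nr3c2 and of Hsd11b1 sit below the SH groups with overlap, and the other genes vary within similar ranges in the 6 groups.

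Nr3c2 (ENSMUSG00000031618, chr8:76899442-77245012, plus strand, GRCm38) was lower in EE than in SH mice. Over the 27 SH mice its lowest, median and highest levels were 308.8, 367.2 and 418.6 CPM, and over the 27 EE mice they were 290.1, 330.3 and 365.0 CPM. All 27 EE mice lay below the SH median and 16 SH mice lay above the highest EE mouse, so the housings overlapped in part. The levels in SH were 342.9, 374.5 and 418.6 CPM in control, 308.8, 359.6 and 380.2 CPM in RES and 338.9, 360.4 and 397.7 CPM in SUS mice. In EE they were 297.0, 346.6 and 365.0 CPM in control, 290.1, 320.8 and 355.4 CPM in RES and 299.7, 330.3 and 345.8 CPM in SUS mice. In each of control, RES and SUS, all 9 EE mice were below the median of the SH mice of the same phenotype. Averaged over the 3 phenotypes, the log2 fold change of EE against SH was -0.15 (SE 0.025, 95% interval -0.200 to -0.101, edgeR quasi-likelihood adjusted p = 0.000431, by Benjamini and Hochberg over 18283 genes), a 0.901-fold level.

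Hsd11b1 (ENSMUSG00000016194, chr1:193221634-193264075, minus strand), which encodes the enzyme that regenerates active CORT from its inert form inside cells, was the other gene called. Its lowest, median and highest levels were 28.3, 33.2 and 40.6 CPM over SH mice and 24.2, 30.1 and 34.5 CPM over EE mice. Of the 27 EE mice, 26 lay below the SH median, and 11 SH mice lay above the highest EE mouse. By group the levels in SH were 32.0, 33.5 and 40.0 CPM in control, 28.3, 34.8 and 40.6 CPM in RES and 28.7, 31.3 and 38.0 CPM in SUS mice. In EE they were 24.9, 30.1 and 34.5 CPM in control, 24.2, 29.5 and 31.5 CPM in RES and 27.8, 30.9 and 32.6 CPM in SUS mice. Compared with SH mice of the same phenotype, 9 of 9 EE RES, 8 of 9 EE control and 5 of 9 EE SUS mice were below the SH median. The log2 fold change of EE against SH was -0.18 (SE 0.036, 95% interval -0.251 to -0.108, adjusted p = 0.00302).

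These were 2 of 10 genes called for housing, both lower in EE, against 2.42% of all tested genes called and 1.54% called lower. The median log2 fold change of the 10 genes was -0.0223, and that of all tested genes was 0.0043. Another 3 genes had an unadjusted p below 0.05, which 17.6% of all genes had. Nr3c1 stood at -0.05 (SE 0.023, adjusted p = 0.229), Ddit4 at -0.08 (SE 0.038, adjusted p = 0.246) and Sgk1 at 0.10 (SE 0.045, adjusted p = 0.234). With glial and endothelial marker levels as covariates the Sgk1 value went to -0.0007, and with neuronal marker levels as covariates that of Ddit4 went to -0.017.

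Within single phenotypes the housing differences of Nr3c2 and Hsd11b1 had the same direction, but edgeR called neither with 7 to 10 mice per group. For Nr3c2 the log2 fold change was -0.17 in control (SE 0.041, adjusted p = 0.380), -0.14 in RES (SE 0.045, adjusted p = 0.111) and -0.14 in SUS mice (SE 0.041, adjusted p = 0.397). For Hsd11b1 it was -0.20 in control (SE 0.060, adjusted p = 0.769), -0.25 in RES (SE 0.065, adjusted p = 0.0620) and -0.09 in SUS mice (SE 0.060, adjusted p = 0.780). In control mice, limma and DESeq2 called 0 of the 10 genes as well, where edgeR called 0.00547% of all genes, and 2 of the 10 had an unadjusted p below 0.05 against 5.02% of all genes. The RES and SUS contrasts of housing were added after the data had been seen. Background there was 0.273% of genes called in RES and 0.00547% in SUS mice, and 6 and 3 of the 10 genes had an unadjusted p below 0.05, against 16.0% and 7.36% of all genes. In RES mice these were Nr3c1, Nr3c2, Hsd11b1 and Ddit4, lower in EE, and Sgk1 and Cdkn1a, higher in EE. In SUS mice they were Nr3c2 and Zbtb16, lower in EE, and Sgk1, higher in EE. In RES mice 7 of 8 granule cell markers were lower (list median -0.34) and 7 of 9 oligodendrocyte markers higher (0.39) at such a p. In SUS mice 7 of 9 oligodendrocyte (0.33), 6 of 8 thalamus (0.70), 3 of 10 endothelial and 3 of 8 microglia markers were higher. The other lists had fewer such genes, and no marker gene was called. Their part in these values was not tested. The test of whether the housing difference changed with phenotype gave a log2 value of -0.0002 for Nr3c2 (95% interval -0.123 to 0.123) and of 0.16 for Hsd11b1 (95% interval -0.017 to 0.339, adjusted p = 0.977) between SUS and RES mice.

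**Figure D2:**
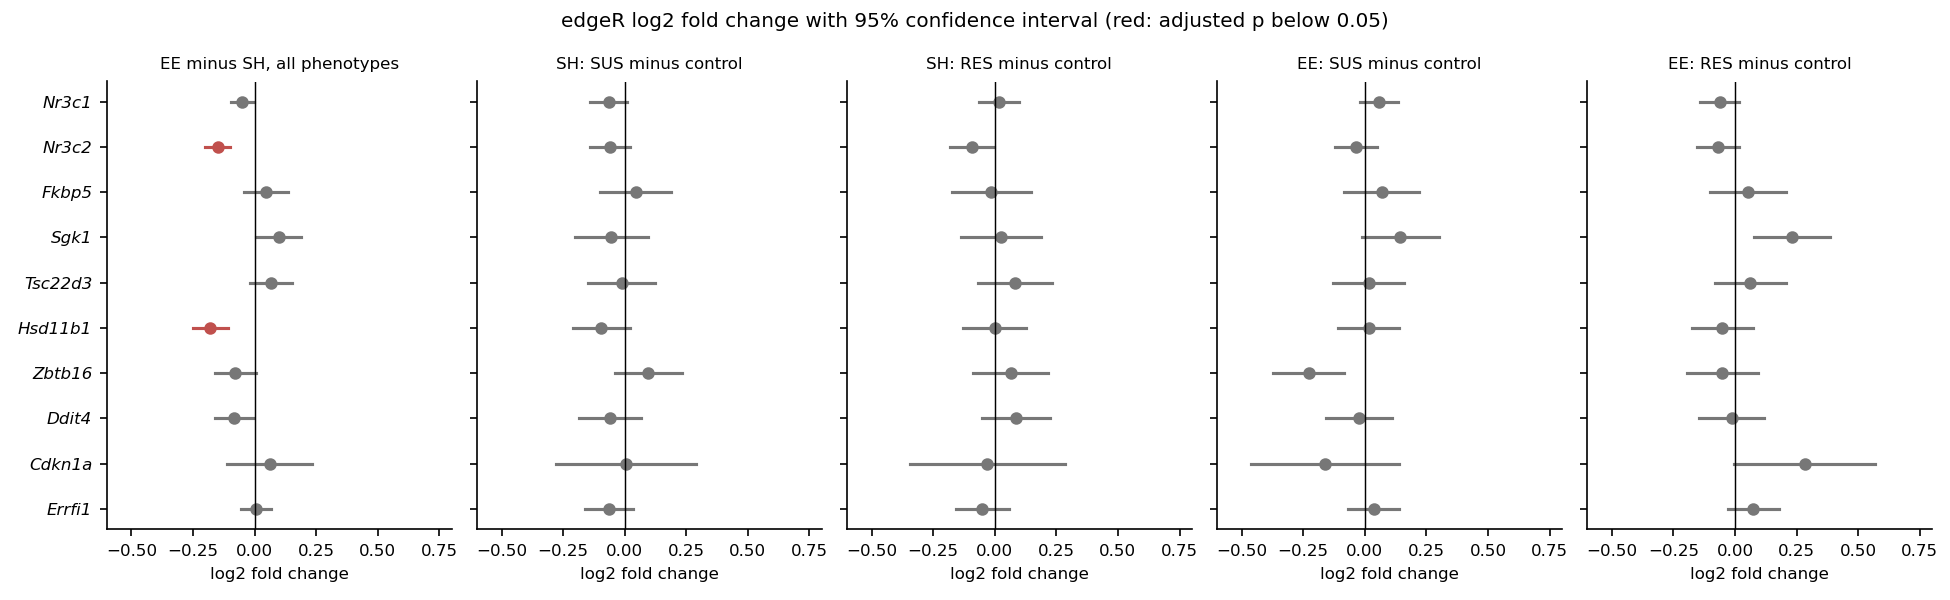
Log2 fold changes of the 10 genes from edgeR with 95% intervals, for EE against SH and for SUS and RES against control mice in each housing, with called values in red. Nr3c2 at -0.15 and Hsd11b1 at -0.18 in EE against SH are the values called.

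Markers of other cell types moved with housing. Of 9 oligodendrocyte markers 2 were called higher in EE, among them Mbp (log2 fold change 0.25, adjusted p = 0.0468), and 8 of the 9 had an unadjusted p below 0.05, all higher, with a list median of 0.27. The summed level of the 9 genes had a median of 1320 CPM in SH and 1618 CPM in EE mice with Mbp the most abundant. By limma Mbp was not called (adjusted p = 0.0548). Of 8 granule cell markers, the desmosomal gene Dsp (-0.30, adjusted p = 0.0281) and Tdo2 (-0.28, adjusted p = 0.0214) were called lower, and 5 of the 8 were lower at an unadjusted p below 0.05 with a list median of -0.15. The 7 CA3 and CA2 markers went both ways, with 2 higher and 2 lower at an unadjusted p below 0.05 and a list median of 0.036. Of these Rgs14, their most abundant gene, was called lower (-0.20, adjusted p = 0.00222), and their summed medians were 191 CPM in SH and 193 CPM in EE. Flt1 was called higher among 10 endothelial markers (0.23, adjusted p = 0.0186, summed median 232 CPM in SH and 245 CPM in EE, most abundant Slco1a4), and at an unadjusted p below 0.05 there were 5 higher and 1 lower, with a list median of 0.093. Igf2 was called higher among 8 fibroblast markers (0.31, adjusted p = 0.0436, summed median 170 CPM in SH and 169 CPM in EE, most abundant Pdgfra), of which 2 were higher at such a p, with a list median of 0.096.

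In the other marker lists no gene was called by edgeR for housing. Summed medians in SH and EE mice were 4659 and 4531 CPM for astrocytes (most abundant Slc1a2, 2 of 8 genes at an unadjusted p below 0.05), 411 and 418 CPM for microglia (3 of 8), 106 CPM in both for CA1 (Mpped1, 0 of 5) and 188 CPM in both for thalamus (Rora, 0 of 8). Red cell genes summed to 129 and 110 CPM (Hbb-bs, 0 of 5), and 0 of the 9 choroid plexus genes tested, led by Ttr, had such a p. No gene of these lists was called by limma either. Bulk RNA cannot tell fewer cells of a type from less RNA per cell.

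With such marker levels in the model, both genes were still called lower in EE. Each list entered as a single mean score, and the sets were fitted separately. The CA3 and CA2 genes, which went both ways, shared a score, so these models do not adjust for CA2 apart from CA3. The part of CA2 content in the values was not tested. Nr3c2 stood at -0.12 with glial and endothelial covariates (adjusted p = 0.0289), at -0.12 with neuronal covariates (adjusted p = 0.0250) and at -0.13 with granule cell and oligodendrocyte covariates (adjusted p = 0.00632). Hsd11b1 stood at -0.16 (adjusted p = 0.0370), -0.19 (adjusted p = 0.00984) and -0.17 (adjusted p = 0.0256) in the same models. With choroid plexus and thalamus covariates the values were -0.15 for Nr3c2 (adjusted p = 0.000446) and -0.17 for Hsd11b1 (adjusted p = 0.00430). Without SH control replicate 3, the mouse of high choroid plexus level, Nr3c2 was at -0.15 (adjusted p = 0.000311) and Hsd11b1 at -0.18 (adjusted p = 0.00208). Both genes overlap a gene on the other strand, Gm10649 and Lamb3, whose median counts were 127 and 54, and counts without strand gave -0.15 and -0.18.

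**Figure D3:**
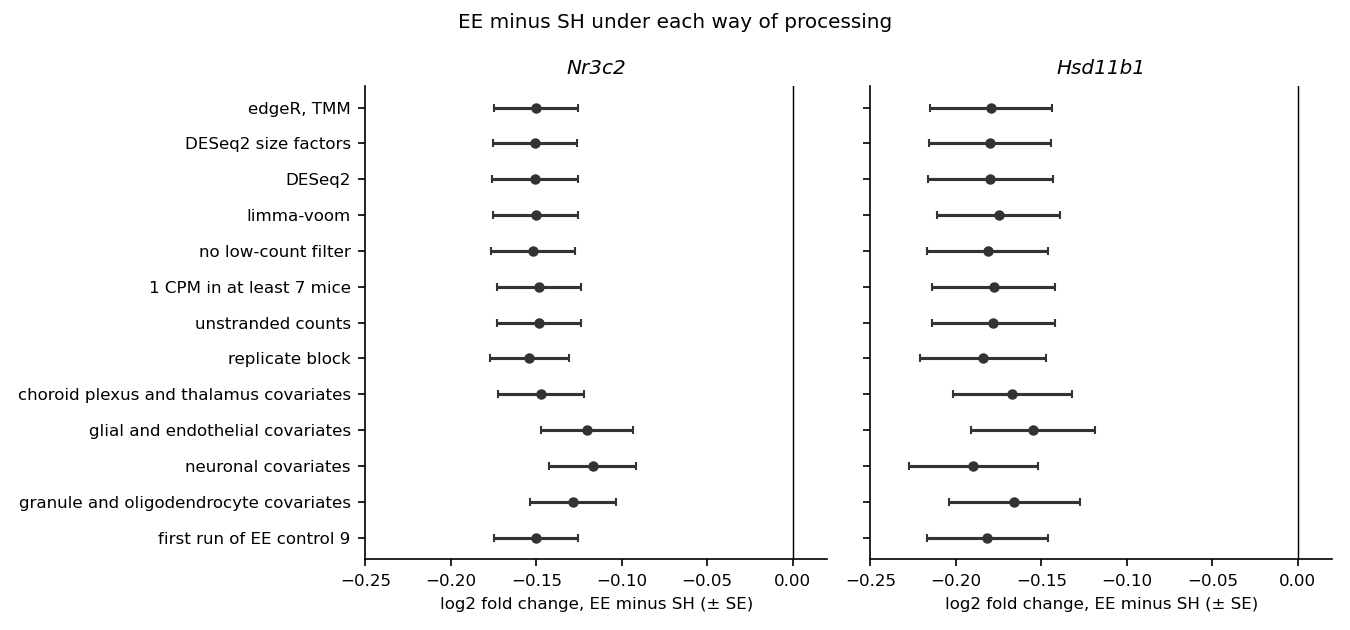
Log2 fold change ± SE of Nr3c2 and Hsd11b1 in EE against SH mice as reported and under 12 alternatives. Nr3c2 ranges from -0.154 to -0.117 and Hsd11b1 from -0.190 to -0.155, all below 0.

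Nr3c1, the glucocorticoid receptor, had the narrowest spread of the 10 genes (coefficient of variation 6.46%). Its lowest, median and highest levels in SH were 123.1, 144.2 and 157.7 CPM in control, 135.5, 142.8 and 160.6 CPM in RES and 127.9, 137.8 and 143.9 CPM in SUS mice. In EE they were 122.5, 134.4 and 149.0 CPM in control, 117.3, 133.9 and 137.7 CPM in RES and 134.0, 140.4 and 154.6 CPM in SUS mice. The order of RES and SUS thus differed by housing: 7 of 9 EE SUS mice were above the highest EE RES mouse, whereas all but 1 of 10 SH SUS mice were below the SH RES median. Between housings, 7 of 9 EE RES mice were below the lowest SH RES mouse, and 7 of 9 EE SUS mice were above the SH SUS median. The interaction of phenotype and housing was 0.20 (SE 0.057, unadjusted p = 0.00083), and its adjusted p was 0.977, so it was not called. Because both receptors were measured in each mouse, their per-kilobase ratio was also computed, and its mean was 3.17 ± 0.253 in SH control, 2.93 ± 0.204 in SH RES, 3.17 ± 0.198 in SH SUS, 2.95 ± 0.272 in EE control, 2.93 ± 0.256 in EE RES and 2.76 ± 0.182 in EE SUS mice (SD). The lowest mean, in EE SUS, and the highest, in SH, were further apart than these SDs, a difference that was not tested.

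Between defeated and control mice over both housings, no responsive gene was called at the time of sampling. Fkbp5 (chr17:28399094-28517527, minus strand) had medians between 39.3 and 44.0 CPM in the 6 groups, with mice from 29.6 to 52.1 CPM. Its log2 difference between defeated and control mice over both housings was 0.037 (95% interval -0.056 to 0.131). Tsc22d3 (chrX:140539528-140600659, minus strand), with group medians between 55.8 and 66.7 CPM, differed by 0.036 (95% interval -0.051 to 0.124). In neither gene did the interval exclude 0. Sgk1 had the largest value of the responsive genes, 0.086 (95% interval -0.009 to 0.181). Zbtb16 stood at -0.030 (95% interval -0.118 to 0.058), Cdkn1a at 0.024 (95% interval -0.157 to 0.204) and Ddit4 at -0.003 (95% interval -0.084 to 0.077). Errfi1 (chr4:150853919-150868892, plus strand), with group medians between 41.3 and 44.1 CPM, stood at -0.001 (95% interval -0.063 to 0.061). For Nr3c1 the value was -0.013 (95% interval -0.061 to 0.035), for Hsd11b1 -0.032 (95% interval -0.107 to 0.042) and for Nr3c2 -0.06 (SE 0.026, unadjusted p = 0.0146, adjusted p = 0.923).

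In that comparison 0 of the 10 genes were called by edgeR, limma or DESeq2, against 0.0438% of all genes with edgeR, and 1 of the 10, Nr3c2, had an unadjusted p below 0.05 against 4.81% of all genes. Red cell genes moved with defeat, 5 of 5 being called higher with a median log2 fold change of 1.09. Their summed level had a median of 82.7 CPM in control mice of either housing and of 147 to 215 CPM in the defeated groups, and its part in these values was not tested. The other marker lists had 0 genes called but some at an unadjusted p below 0.05. Higher were 6 of 8 thalamus genes (list median 0.46) and 1 of 7 CA3 and CA2 genes. Lower were 3 of 9 choroid plexus (-0.41), 3 of 8 astrocyte (-0.038), 1 of 10 endothelial and 1 of 8 microglia genes. Summed choroid plexus medians were between 24.4 and 26.7 CPM in the 6 groups, with SH control replicate 3 at 1023 CPM. Over the 12 alternatives, some with marker covariates, the Nr3c2 value ranged from -0.065 to -0.048.

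The 4 comparisons of a defeated group with control mice of its housing called 0 of the 10 genes with any of the 3 tools. With edgeR 0.0328% of all genes were called for SUS in SH and 0% for RES in SH, SUS in EE and RES in EE. At an unadjusted p below 0.05 there were 0 of the 10 genes for SUS in SH (2.78% of all genes), 1 for RES in SH (3.51%), 1 for SUS in EE (7.90%) and 1 for RES in EE (7.91%). These were Nr3c2 in SH RES mice (-0.09, SE 0.044), Zbtb16 in EE SUS mice and Sgk1 in EE RES mice, the latter pair being described next. In SH RES against SH control mice no marker gene was called, but some were at such a p. Lower were 6 of 9 choroid plexus genes (list median -1.52). Their summed medians were 24.6 and 26.3 CPM, with SH control replicate 3 at 1023 CPM. Higher were 5 of 5 red cell genes (1.02, summed medians 167 and 82.7 CPM) and 1 of 5 CA1 genes. Also lower were 1 of 10 endothelial and 1 of 8 fibroblast genes. The 9 oligodendrocyte genes were all below 0 with 0 at such a p (-0.28, summed medians 1256 and 1456 CPM). With each of the 4 sets of marker covariates the Nr3c2 value was between -0.10 and -0.095, and without SH control replicate 3 it was -0.099.

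Sgk1 (chr10:21882184-21999903, plus strand) had a lowest, median and highest level of 63.9, 74.7 and 96.5 CPM in EE RES mice and of 55.5, 62.8 and 74.9 CPM in EE control mice. All 9 EE RES mice were above the EE control median and 4 were above the highest control mouse. The log2 fold change was 0.23 (SE 0.077, unadjusted p = 0.00411), and it was not called (adjusted p = 0.538). In SH mice the medians were 68.2 CPM in control, 64.8 CPM in RES and 62.8 CPM in SUS mice, and EE SUS mice had a median of 70.0 CPM. The difference in the defeat response between housings was 0.20 (95% interval 0.015 to 0.392, adjusted p = 0.756). The Sgk1 values were smaller with marker levels in the model. The value for EE RES mice went to 0.13 with glial and endothelial and to 0.12 with neuronal covariates. That for EE SUS mice went from 0.14 to 0.006 and 0.004, and that for the defeat response between housings to 0.06 and 0.07. In EE RES against EE control mice no marker gene was called by edgeR, but at an unadjusted p below 0.05 there were 4 of 8 thalamus genes higher, 3 of 8 granule cell and 3 of 8 astrocyte genes lower, 2 of 7 CA3 and CA2 genes higher, 1 of 10 endothelial genes lower and 5 of 5 red cell genes higher. Summed medians in EE control and EE RES mice were 135 and 193 CPM for thalamus, 1353 and 1218 CPM for granule cells and 4777 and 4279 CPM for astrocytes, with Rora, Rfx3 and Slc1a2 the most abundant genes.

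Zbtb16 (chr9:48654297-48836222, minus strand) was at 32.5, 41.1 and 47.2 CPM in EE SUS mice and at 39.5, 46.9 and 57.0 CPM in EE control mice. Of the 9 EE SUS mice, 8 were below the EE control median and 3 below the lowest control mouse. The log2 fold change was -0.23 (SE 0.072, unadjusted p = 0.00267, adjusted p = 0.337), the smallest adjusted p of the 60 values within a housing. The housing difference among SUS mice was -0.26 (SE 0.071, adjusted p = 0.375), as SH SUS mice had a median of 47.9 CPM. In that comparison 6 of 8 thalamus (list median 0.70) and 7 of 9 oligodendrocyte genes (0.33) were higher at an unadjusted p below 0.05. So were 3 of 10 endothelial and 3 of 8 microglia genes, while 1 of 8 granule cell and 1 of 7 CA3 and CA2 genes were lower. None was called, and their part in the Zbtb16 difference was not tested. In EE SUS mice the thalamus markers were higher than in EE control mice, with summed medians of 317.7 and 134.8 CPM, Rora the most abundant and 8 of 8 genes at an unadjusted p below 0.05 though 0 called. At such a p there were also 5 of 5 red cell genes higher (summed medians 183 and 82.7 CPM, Hbb-bs the most abundant), 2 of 7 CA3 and CA2 genes higher (194 and 176 CPM), 2 of 8 astrocyte genes lower (4444 and 4777 CPM), and 1 of 5 CA1 and 1 of 8 fibroblast genes lower, with 0 called. With choroid plexus and thalamus covariates the Zbtb16 value was -0.19 (SE 0.078, adjusted p = 0.900), and over the 12 alternatives it ranged from -0.230 to -0.159.

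Between SUS and RES mice 0 of the 10 genes were called by edgeR, limma or DESeq2 in SH, in EE or over both housings, and edgeR called 0% of all genes in each. Unadjusted p-values below 0.05 were found for 1 of the 10 genes in SH (4.88% of all genes), for 3 in EE (3.52%) and for 0 over both (3.67%). In SH the gene was Ddit4 (chr10:59949669-59951834, minus strand), with a median of 31.8 CPM in SUS and 33.7 CPM in RES mice (-0.15, SE 0.069). In EE they were Nr3c1 (0.12, SE 0.039), Zbtb16 (-0.18, SE 0.073) and Cdkn1a (-0.45, SE 0.148), each with an adjusted p of 0.9997. In this comparison 1 thalamus gene of 8 and 1 microglia gene of 8 were higher, and 1 CA1 gene of 5 and 1 fibroblast gene of 8 lower, at an unadjusted p below 0.05, with 0 called. Summed medians in EE SUS and EE RES mice were 317.7 and 193 CPM for thalamus, 417 and 412 CPM for microglia and 91.2 and 137 CPM for CA1 (list medians 0.53, 0.059 and -0.47). Over the 4 sets of marker covariates Nr3c1 ranged from 0.088 to 0.117, Zbtb16 from -0.170 to -0.116 and Cdkn1a from -0.525 to -0.380. In SH, SUS against RES mice had 2 of 8 granule cell, 1 of 5 CA1 and 1 of 10 endothelial genes lower and 1 of 7 CA3 and CA2 and 1 of 9 choroid plexus genes higher at such a p, and Ddit4 ranged from -0.139 to -0.106 over these covariates. Cdkn1a (chr17:29090976-29100727, plus strand) was at 0.641, 1.06 and 1.36 CPM in EE SUS mice and at 0.830, 1.51 and 2.10 CPM in EE RES mice. All 9 EE SUS mice were below the EE RES median and 6 EE RES mice were above the highest EE SUS mouse. Cdkn1a was also the 1 of 10 genes that met the looser rule of the study in this comparison, an unadjusted p below 0.05 with limma and a fold change above 1.3, which 1.10% of all genes met.

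The responses to defeat and to phenotype were also compared between housings. Of the 10 genes 0 were called by the 3 tools, as were 0% of all genes with edgeR. Unadjusted p-values below 0.05 were found for Sgk1 and Zbtb16 (-0.22, SE 0.088) in the defeat response, 2 of 10 against 6.47% of all genes, the Zbtb16 value reaching -0.13 under an alternative, and for Nr3c1 and Cdkn1a (-0.48, SE 0.215) in the phenotype difference, 2 of 10 against 4.84%. Marker genes at such a p in the defeat response were 5 of 8 for thalamus, 2 of 9 for choroid plexus, 1 of 9 for oligodendrocytes and 1 of 7 for CA3 and CA2, all more positive in EE. In the phenotype difference they were 1 of 8 for granule cells and 1 of 10 for endothelium, more positive in EE, and 1 of 8 for fibroblasts, more negative. None was called by edgeR.

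Genes that handle the receptors showed 1 called value. Of 17 tested genes for chaperones, cofactors and corticosteroid handling, Stip1, a cochaperone that links heat shock proteins during receptor loading, was higher in EE (159 ± 13.4 CPM in SH, 175 ± 22.1 CPM in EE, SD, 27 mice each). Its log2 fold change was 0.14 (SE 0.042, adjusted p = 0.0471), and limma gave an adjusted p of 0.0569, above the threshold of 0.05. In this list 6 of the 17 were at an unadjusted p below 0.05, all 6 higher, and the list had a median of 0.0369. Of all tested genes 17.6% had such a p and 2.42% were called, and their median was 0.0043. The others were Hsp90aa1, Hsp90ab1, Hspa4, Hspa8 and the efflux transporter Abcb1a, with log2 values of 0.12, 0.08, 0.06, 0.10 and 0.11, which were chosen after their values were seen. Hsd11b2, which encodes the enzyme that inactivates CORT, was not tested, as it had 0 counts in 46 of 54 mice.

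Of 24 further glucocorticoid targets, 0 were called for housing by edgeR or limma, 3 were at an unadjusted p below 0.05, all higher in EE, and the median was 0.0463. This count is near the 17.6% of all genes with such a p and is not a result about the list. The 3 genes were Lcn2, a secreted iron-binding lipocalin (1.72, SE 0.529, adjusted p = 0.0619), Gjb6, an astrocyte connexin (0.11, SE 0.035, adjusted p = 0.0699), and Angptl4, a regulator of lipoprotein lipase (0.24, SE 0.078, adjusted p = 0.0749), and they too were chosen after their values were seen. Lcn2 was near the detection limit in many mice, with 5 mice at 0 and a highest value of 23.4 CPM in EE SUS replicate 7, 1.88 times the next mouse. This mouse also had the highest summed level of microglia markers of the 54, at 601 CPM with the next mouse at 482 CPM, and the part of this in the Lcn2 value was not tested.

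For the defeat comparison over both housings, 0 of 41 genes in these lists were called and 1, Lcn2 (1.43, SE 0.607, adjusted p = 0.987), had an unadjusted p below 0.05, as did 4.81% of all genes. The next lowest p was that of Bcl6 (-0.13, SE 0.067, adjusted p = 0.987). The rapidly induced targets Per1, Dusp1 and Klf9 stood at -0.004, 0.012 and 0.023 (SE 0.048, 0.059 and 0.025), and these were chosen after their values were seen. The medians were 0.0178 for receptor handling and -0.0074 for further targets, beside -0.0028 for all genes. In the other planned comparisons edgeR and limma called 0 of the 41 genes, and 0 to 4 of them had an unadjusted p below 0.05, which between 2.78% and 7.91% of all genes had in these comparisons. The counts are not read as results about the lists, and the genes that follow are named by rank alone. The lowest p-values there belonged to Lcn2 and Gjb6 for SUS in SH (2.43 and -0.12), to Sesn1 and Gjb6 for RES in SH (0.10 and -0.09), to Lcn2 and Nrip1 for SUS in EE (1.98 and -0.12) and to Arrdc2 and Nfkbia for RES in EE (0.23 and 0.17). For SUS against RES they belonged to Sesn1 and Tiparp in SH (-0.15 and -0.14), to Lcn2 and Nrip1 in EE (1.90 and -0.09) and to Lcn2 and Tiparp over both (1.55 and -0.09). For EE against SH control mice they were Lcn2 and Mertk (2.25 and 0.14), for the defeat response between housings Hspa4 and Hsp90aa1 (0.09 and 0.14), and for the phenotype difference between housings Ppid (-0.08).

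**Figure D4:**
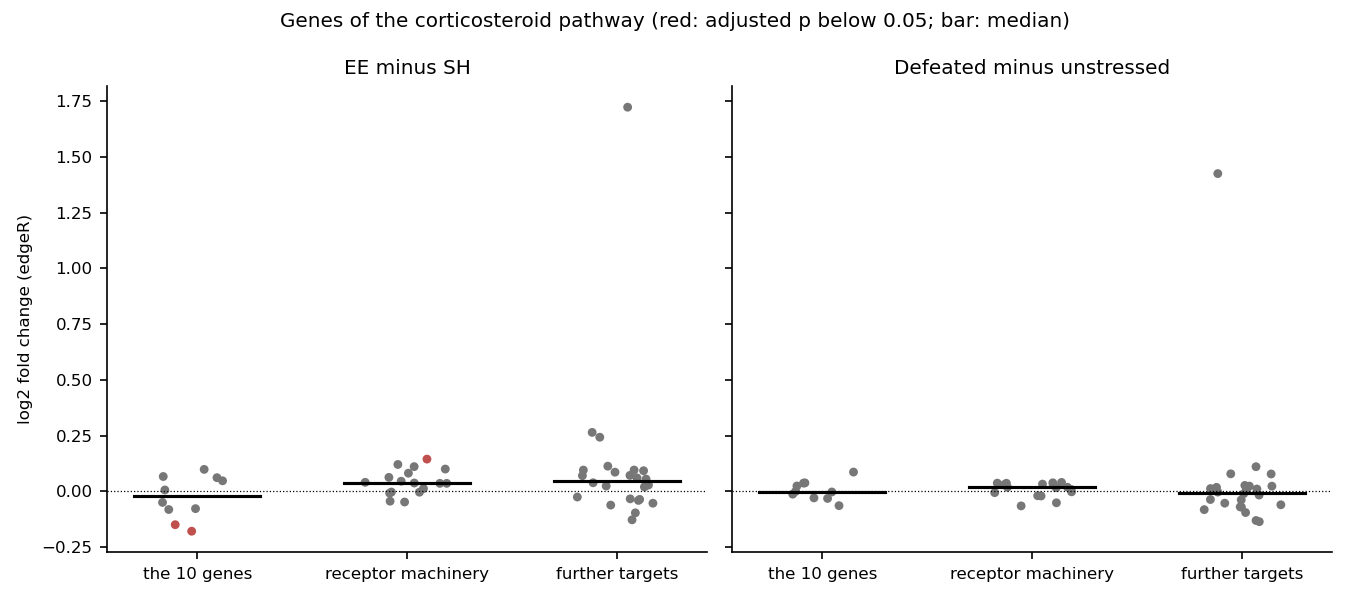
Log2 fold changes of the 10 genes, of 17 receptor handling genes and of 24 further glucocorticoid targets in EE against SH and in defeated against control mice, with called genes in red and a bar at the median of each list. Called values are Nr3c2, Hsd11b1 and Stip1 for housing, and none for defeat.

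Genes with the most similar profile to each member were listed by Pearson's r of log2 CPM over the 54 mice. These mice differed in tissue composition and depth, so r is given as a description. For Nr3c2 the genes were the mitochondrial malic enzyme Me3 (r = 0.745), the calcium-binding protein gene Scgn (0.707) and the homeobox gene Mkx (0.688). Since r was taken without subtracting group means, genes that share the housing difference of a member rank high by construction. These 3 genes were called lower in EE, with log2 fold changes of -0.13, -0.53 and -0.26 (adjusted p = 0.00128, 0.000514 and 0.0157). For Hsd11b1 they were the splicing factor gene Prpf38a (0.720), Casd1, an acetyltransferase for sialic acid (0.704), and the neutral amino acid transporter gene Slc6a15 (0.695). These were called lower in EE as well, and the same limit applies (-0.09, -0.08 and -0.19, adjusted p = 0.0449, 0.0384 and 0.000105). The first gene for the others was Pdik1l for Nr3c1 (0.694), Vps26b for Fkbp5 (0.807), Ublcp1 for Sgk1 (0.776), Adipor2 for Tsc22d3 (0.650), Slit3 for Zbtb16 (0.659), Pqlc1 for Ddit4 (0.708), Luzp1 for Errfi1 (0.684) and Casp4 for Cdkn1a (0.482).

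Among the members, 13 of 45 pairs were correlated across the 54 mice after group means had been subtracted (permutation tests with 100000 resamples within groups, adjusted over the 45 pairs), 7 positively and 6 negatively. By Spearman's rho 11 of the 45 were. How often pairs of other genes were correlated in these mice was not tested. Neither these counts nor the coefficients that follow are therefore read as a trait of the members. The highest coefficients joined 3 responsive genes. Sgk1 and Tsc22d3 had r = 0.62 and rho = 0.62 (permutation p = 1e-05 for both, the smallest that 100000 resamples can give, adjusted p = 0.000225), and r = 0.57 without the 2 mice farthest from the median of Sgk1. For Sgk1 and Errfi1 r was 0.61 and rho 0.64 (permutation p = 1e-05 for both, adjusted p = 0.000225, r = 0.63 without 2 mice), and for Tsc22d3 and Errfi1 r was 0.51 and rho 0.62 (permutation p = 0.00017 and 2e-05, adjusted p = 0.00255 and 0.0003, r = 0.52 without 2 mice). Fkbp5 was not among this set, and its positive partners were Ddit4 (r = 0.40, rho = 0.34, adjusted permutation p = 0.0321 and 0.0658) and Zbtb16 (r = 0.38, rho = 0.31, adjusted permutation p = 0.0377 and 0.103).

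Nr3c1 went with Hsd11b1 (r = 0.46, rho = 0.45, adjusted permutation p = 0.00577 and 0.0108, r = 0.41 without 2 mice) and against Fkbp5 (r = -0.50, rho = -0.51, adjusted permutation p = 0.00495 and 0.00405, r = -0.44 without 2 mice). It also went against Tsc22d3 (r = -0.46, rho = -0.46, adjusted permutation p = 0.00531 and 0.0106) and Errfi1 (r = -0.39, rho = -0.36, 0.0321 and 0.0460). Tsc22d3 went against Hsd11b1 (r = -0.46, rho = -0.40, adjusted permutation p = 0.0148 and 0.0324) and Nr3c2 (r = -0.42, rho = -0.43, 0.0181 and 0.0167). When glial and endothelial marker levels were regressed out as well, 0 of the 45 pairs were called, while 13 of the 13 kept their sign. Sgk1 and Tsc22d3 then had r = 0.39 (adjusted p = 0.0611), Sgk1 and Errfi1 0.24 (adjusted p = 0.285), and Nr3c1 and Fkbp5 -0.41 (adjusted p = 0.0611).

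**Figure D5:**
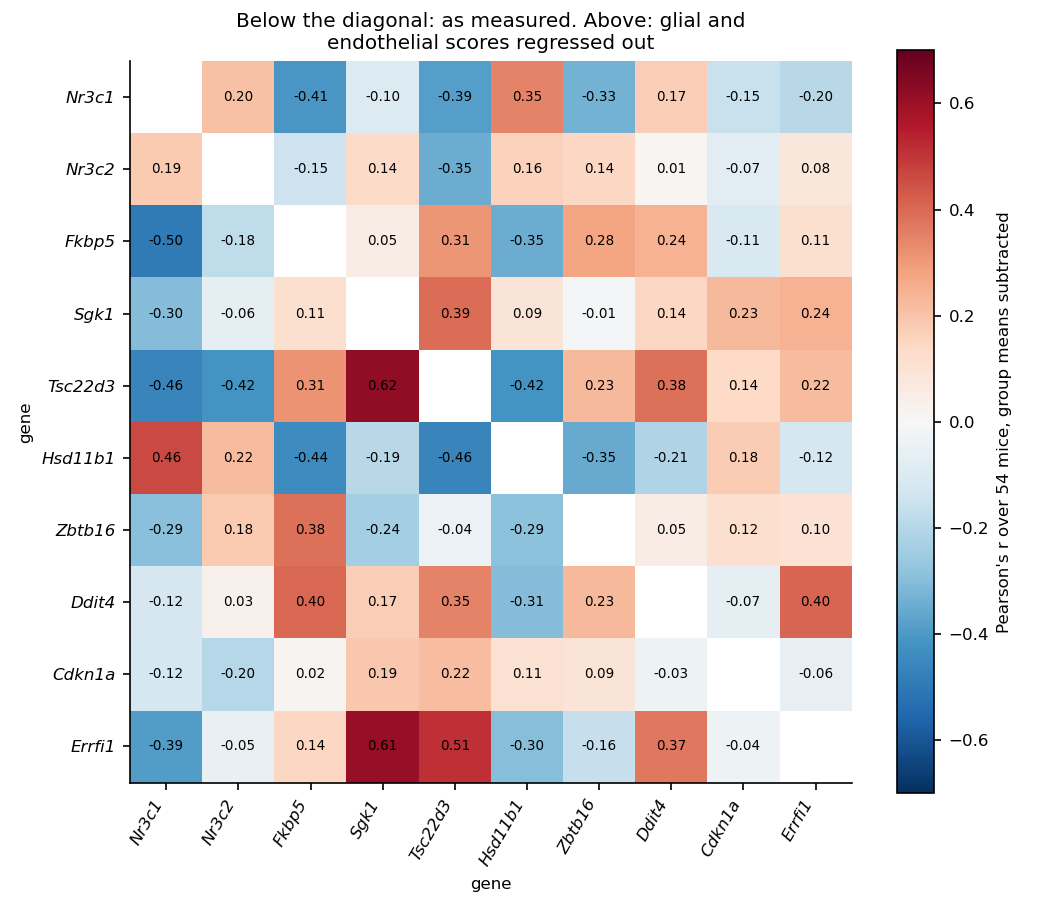
Pearson's r between the 10 genes over 54 mice with group means subtracted, as measured below the diagonal and with glial and endothelial marker levels regressed out above it. The block of Sgk1, Tsc22d3 and Errfi1 is positive below the diagonal (0.51 to 0.62) and weaker above it.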

How the data were processed

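The authors deposited raw counts per gene and library, without normalization, in tables laid out as STAR gene counts with unstranded, forward and reverse columns. According to the methods, reads with a score below 15 were discarded and the rest aligned to GRCm38 with STAR, and the submitters' processing notes also list Picard and mm10. The methods name featureCounts for quantification. Libraries were made with a stranded kit for total RNA, so reverse-strand counts were used. Rows for unmapped (13.9% to 19.9% of all), multimapping (8.70% to 12.1%), ambiguous (0.836% to 1.12%) and unassigned reads (median 23.7%) entered neither library sizes nor tests. The 2 runs of EE control replicate 9 (r = 0.999 of log2 CPM) were summed as 1 mouse. The range of mice per group in the methods ends below the number that the labels give for 5 of the 6 groups, and all 54 mapped mice were used. Of the identifiers 44671 of 45318 matched GENCODE M21.

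Counts were normalized by TMM and filtered with filterByExpr in edgeR 4.0.16 (R 4.3.3). The quasi-likelihood test was fitted to the 6 groups for 12 planned comparisons and 2 added after the data had been seen, with Benjamini-Hochberg adjustment over all 18283 genes and calls at an adjusted p below 0.05. Comparisons over both housings or all phenotypes average the group differences with equal weight. limma 3.58.1 (voom) and DESeq2 1.42.0 were run beside it. Correlations used log2 CPM with a prior count of 2. CPM per kilobase used the union of annotated exons.

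The 10 genes, the lists of receptor handling genes, further targets and cell type markers, and the tests were chosen with earlier results of these data known. Named from the 2 pathway lists were called genes and, in comparisons that called none, the 2 with the smallest p, from marker lists the most abundant gene, and as similar profiles the 3 genes of highest r (the first alone for 8 members). Dsp, Tdo2, Mbp, Rgs14, Flt1 and Igf2, where not the most abundant of their list, were named because they were called. Outside this rule, and after their values were seen, Hsp90aa1, Hsp90ab1, Hspa4, Hspa8, Abcb1a, Lcn2, Gjb6 and Angptl4 were named for housing and Per1, Dusp1 and Klf9 for defeat. Some genes of these lists are not reported here, also where the rule would name them. Alternatives were DESeq2, DESeq2 size factors, limma, no filter, a stricter filter (1 CPM in 7 or more mice), counts without strand, the replicate number as a block, marker covariates (neuronal and granule with oligodendrocyte added after the data had been seen), 1 run of EE control replicate 9, and each mouse left out.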

Additional observations from a re-analysis of the deposited data

Results flagged for a closer look

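In 1 of the 60 groups formed by the 10 genes and 6 groups of mice a sample lay far from the others. Tsc22d3 stood at 80.5 CPM in SH SUS replicate 3, the next highest mouse of that group being at 64.0 CPM, a gap of 0.584 of the range of the group where 0.466 is the 95% critical value of Dixon's test. Chance gives such a gap in about 1 of 20 groups, or 3 of 60. The same mouse had the highest summed level of oligodendrocyte markers of the SH mice (2434 CPM) and of thalamus markers among SH mice (446 CPM). Its summed granule cell markers were the lowest of the SH mice (922 CPM), and its choroid plexus markers summed to 377 CPM. The part of these levels in the Tsc22d3 value was not tested.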

How the results depend on the processing

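Nr3c2 and Hsd11b1 were called lower in EE under each of 12 alternatives and without each of the 54 mice in turn. Nr3c2 ranged from -0.154 to -0.117 under the alternatives and from -0.162 to -0.144 without a mouse, and Hsd11b1 from -0.190 to -0.155 and from -0.194 to -0.166. Of the 118 values of the 10 genes not called, 0 were called in any alternative, and 35 changed sign in at least 1, the largest of them 0.098 in size. Among values of an unadjusted p below 0.05, marker covariates reduced by more than 1.5 times those of Sgk1 and of Ddit4 given above and, at their least, those of Zbtb16 for SUS against RES in EE (-0.176 to -0.116), of Zbtb16 for the defeat response between housings (-0.220 to -0.130) and of Nr3c1 for housing (-0.050 to -0.032), and 1 mouse left out moved Nr3c2 for RES in SH from -0.094 to -0.059. The number of the 10 genes called was 2 for housing and 0 in the other planned comparisons throughout.

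The number of all genes called for housing was less stable than those calls. It was 442, and 680 with DESeq2, 242 without the filter, 59 with glial and endothelial, 63 with neuronal and 94 with granule cell and oligodendrocyte covariates. Without single mice it ranged from 254 to 735, with 701 without SH control replicate 3, 294 without SH RES replicate 1, 735 without SH SUS replicate 3, 283 without SH SUS replicate 8, 264 without EE control replicate 5 and 254 without EE RES replicate 8. For EE against SH control mice 1 gene was called, 2 with DESeq2, unstranded counts or choroid plexus and thalamus, glial and endothelial or granule cell and oligodendrocyte covariates, and 1 to 4 without a mouse. For SUS in SH 6 were called, 1 with limma and 2 to 8 without a mouse. For defeat over both housings 8 were called, 13 with DESeq2 and 7 to 10 without a mouse, and for the defeat response between housings 0, with 1 under granule cell and oligodendrocyte covariates. Without a mouse 0 to 2 were called for RES in EE and 0 to 4 for SUS in EE. Correlated pairs numbered 13, 11 without subtracting group means and 0 with glial and endothelial levels regressed out. The cause of these shifts was not tested.

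Same-numbered mice of different groups showed little shared deviation (median r = 0.026 over 126 pairs, highest 0.44, 32 over 0.1). The median over the 1086 other pairs was -0.004. Replicate numbers were therefore not used to pair the mice in the reported test, though these values cannot exclude a weak link. With the replicate number as a block, 2 of the 10 genes and 581 genes in all were called for housing, Nr3c2 at -0.15 (adjusted p = 0.000115) and Hsd11b1 at -0.18 (adjusted p = 0.00341). Depth limits Cdkn1a, with a median of 25 reads per mouse, more than the other members.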
